A study of Mus musculus with 16 samples.

Results

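The genes Trem2, Tyrobp, Clec7a, Cst7, Itgax, Axl, Lpl, Spp1, Gpnmb and Cd9 were described in single cells from the cortex of THY-Tau22 and wild-type (WT) mice. These 10 genes were chosen by symbol from the 30389 genes listed over 16 Drop-seq libraries, as the Trem2 receptor, its adaptor and genes known to rise in disease-associated microglia. THY-Tau22 mice carry, as heterozygotes, a human 4-repeat tau transgene with a pair of mutations under a Thy1 promoter that is active in neurons, so the transgene is driven in neurons and not in microglia. All animals were 17 months old and on a C57Bl6/J background, and the controls were WT littermates. The labels gave 4 WT and 4 THY-Tau22 mice among the males and 3 and 5 among the females, with 1 library each and no treatment.

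In Drop-seq, each cell is captured with a barcoded bead, and each mRNA molecule is counted once by its unique molecular identifier (UMI). Of 48000 barcodes, 28530 had between 200 and 7000 detected genes and were kept as cells, with 1121 to 2526 cells per library. The library labelled WT male 3 and that labelled THY-Tau22 male 4 shared 2952 of 3000 barcodes, against 3 to 12 for any other pair, so both were left out of every comparison. The titles of WT male 1 and THY-Tau22 female 1 gave the same animal number, and those of WT female 3 and THY-Tau22 female 5 carried another prefix than the rest, neither of which the sources used here explain. This left 14 mice, with 3 in each group except the THY-Tau22 females, where there were 5. Levels are given as CPM, the UMIs of a gene per 1000000 UMIs summed over the cells of a class in a mouse, and the mean is given with its SD over mice.

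Trem2 is a lipid- and lipoprotein-sensing receptor of microglia and other macrophages. It signals through Tyrobp (also called DAP12), an adaptor whose cytoplasmic motif recruits the kinase Syk. In mouse models with amyloid or tau deposits and in demyelination, microglia are known to lower homeostatic genes such as P2ry12 and Tmem119 and to raise a set that includes Apoe, Clec7a, Cst7, Lpl, Itgax, Axl, Spp1, Gpnmb and Cd9, the later part of which depends on Trem2.

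The receptor gene Trem2 lies on chromosome 17 (48346401-48352276, GRCm38.p6) and the adaptor gene Tyrobp on chromosome 7 (30413782-30417582). Clec7a, which encodes the beta-glucan receptor dectin-1, lies on chromosome 6 (129461591-129472785), and Cst7, which encodes the cysteine protease inhibitor cystatin F, on chromosome 2 (150570415-150578944). Promoter windows are shown for Trem2, the receptor, and for Clec7a and Cst7, the members called between genotypes in males below. Cst7 was called only in a grouping of cells added after the data had been seen. The windows run from 250 bases before to 50 bases after the annotated start. They were taken from RefSeq on GRCm38.p6 and are written 5′ to 3′ on the gene's own strand, in lower case, with capitals at each match to the 3 motifs searched on both strands, of which the Cst7 window holds none.
Trem2, chr17:48346151-48346450, plus strand: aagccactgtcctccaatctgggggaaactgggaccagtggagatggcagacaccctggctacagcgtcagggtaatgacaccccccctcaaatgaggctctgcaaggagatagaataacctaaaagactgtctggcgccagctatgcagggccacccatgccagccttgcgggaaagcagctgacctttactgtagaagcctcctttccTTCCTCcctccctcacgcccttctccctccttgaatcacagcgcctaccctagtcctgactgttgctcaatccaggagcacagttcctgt
Clec7a, chr6:129472730-129473029, minus strand: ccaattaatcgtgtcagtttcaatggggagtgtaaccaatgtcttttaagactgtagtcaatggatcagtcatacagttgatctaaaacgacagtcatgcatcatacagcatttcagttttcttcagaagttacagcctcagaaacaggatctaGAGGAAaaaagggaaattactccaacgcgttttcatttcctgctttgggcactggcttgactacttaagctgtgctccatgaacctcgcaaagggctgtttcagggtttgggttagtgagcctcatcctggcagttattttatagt
Cst7, chr2:150570165-150570464, plus strand: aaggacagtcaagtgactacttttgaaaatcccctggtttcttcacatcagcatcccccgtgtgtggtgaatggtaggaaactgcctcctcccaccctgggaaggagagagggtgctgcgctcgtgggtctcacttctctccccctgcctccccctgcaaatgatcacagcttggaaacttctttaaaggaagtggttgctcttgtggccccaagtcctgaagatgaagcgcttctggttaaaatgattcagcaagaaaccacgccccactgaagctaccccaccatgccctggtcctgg
The motifs were GAGGAA, the core bound by PU.1, a factor that sets macrophage identity, TGACTCA, the site of AP-1, and CACGTG, the E-box of MITF and TFEB. They do not overlap each other. GAGGAA or its reverse complement was found in windows of Trem2, Clec7a, Axl and Spp1, 4 of the 8 members with a window, and in 28.3% of all 32851 windows. TGACTCA was found in those of Itgax and Gpnmb, and in 5.2% of all windows, and CACGTG in those of no member, and in 7.15% of all windows. Tyrobp and Lpl had no window in the reference used here.

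Cells were clustered without the 10 members, and each cluster was called by a class name from marker genes. Microglia-like cells were the largest class, with 7924 of the 28530 cells, 6847 of them in the 14 mice compared. They formed 2 clusters in which all 10 microglial markers were raised. The larger cluster was led by genes such as the chemokine genes Ccl4 and Ccl3 and the cytokine gene Il1a, and the smaller by genes such as P2ry12, Gpr34 and Maf. The microglial markers summed to 16975 CPM in this class and the 8 macrophage markers to 22.2 CPM. Macrophage-like cells numbered 445 and were led by Mrc1, Cd74 and Pf4, markers of border macrophages.

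The receptor and its adaptor marked the myeloid classes. Trem2 was highest in microglia-like cells, at 586 CPM (SD 286, n = 14 mice), followed by macrophage-like cells at 398 CPM (SD 410.3), and the difference passed a two-sided permutation test within mice (adjusted p = 0.0132). At a finer clustering (Leiden resolution 1.0) its highest class, again microglia-like, did not differ from the next (permutation test, adjusted p = 0.180). Among the classes with enough mice to be ranked, every other mean was at most 23.5 CPM. Ependymal-like cells, in too few mice for this, had 25.7 CPM pooled, from 5 UMIs. These levels were below the 127 CPM of Trem2 in the barcodes with fewer than 200 genes, which may hold free RNA or shallow cells. Tyrobp stood at 1199.8 CPM (SD 864) in macrophage-like and 1066 CPM (SD 478) in microglia-like cells, and these neighbours in the order did not differ beyond their spread (permutation test, adjusted p = 0.991). In the other classes Tyrobp was at most 47.7 CPM.

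The other surface genes were less particular to microglia-like cells. Clec7a was 9.24-fold higher in macrophage-like than in microglia-like cells, at 767 CPM (SD 575) against 83.0 CPM (SD 62.6; permutation test, adjusted p = 0.00146). The next class, OPC-like cells (oligodendrocyte precursors), had 12.3 CPM from 7 UMIs. The integrin gene Itgax (CD11c) was sparse everywhere, with 19 UMIs in macrophage-like and 15 in microglia-like cells. Axl, a receptor tyrosine kinase that takes part in the clearance of apoptotic cells, was at 51.1 CPM in macrophage-like, 36.6 CPM in astrocyte-like and 31.3 CPM in mural-like cells, neighbours in the order that did not differ beyond their spread, and at 4.0 CPM in microglia-like cells. The tetraspanin gene Cd9 was at 517 CPM (SD 161) in microglia-like cells, 457 CPM (SD 229) in OPC-like cells and 377 CPM (SD 166) in oligodendrocyte-like cells, and no neighbouring pair down to that point passed the test.

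The secreted and lysosomal members were rare in microglia-like cells. Lpl, lipoprotein lipase, was at 589 CPM (SD 742) in macrophage-like cells and at 35.0 CPM (SD 41.6) in neuron-like cells (adjusted p = 0.0337), with 19.4 CPM (SD 21.3) in microglia-like cells. Cst7 was at 203 CPM (SD 359.9) in macrophage-like cells and at 21.0 CPM (SD 12.8) in microglia-like cells (adjusted p = 0.0337). Spp1 (osteopontin) was at 623 CPM (SD 994) in macrophage-like and 260.4 CPM (SD 315, n = 8 mice) in fibroblast-like cells, which did not differ beyond their spread (adjusted p = 0.903), and only 9 Spp1 UMIs were counted in all microglia-like cells. Gpnmb, a lysosomal and membrane glycoprotein, had 2 UMIs in microglia-like cells, 12 in macrophage-like and 16 in OPC-like cells. In macrophage-like cells 12 of 14 mice had no Gpnmb UMI. These p-values are from permutation tests adjusted over all neighbouring pairs of the 10 members. With at least 500 genes per cell, only 3 mice kept 10 macrophage-like cells, and 6 in place of 2 members were then highest in microglia-like cells. At the finer clustering Axl was highest in astrocyte-like and Gpnmb in OPC-like cells, in place of macrophage-like cells. The highest class there did not differ from the next for Cst7 (adjusted p = 0.9) or Lpl (0.776), and did for Clec7a (0.0117). Cst7 and Lpl also did not pass with log2(CPM + 1) (0.282 and 0.126) or without doublets (0.0562 each).

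**Figure D1:**
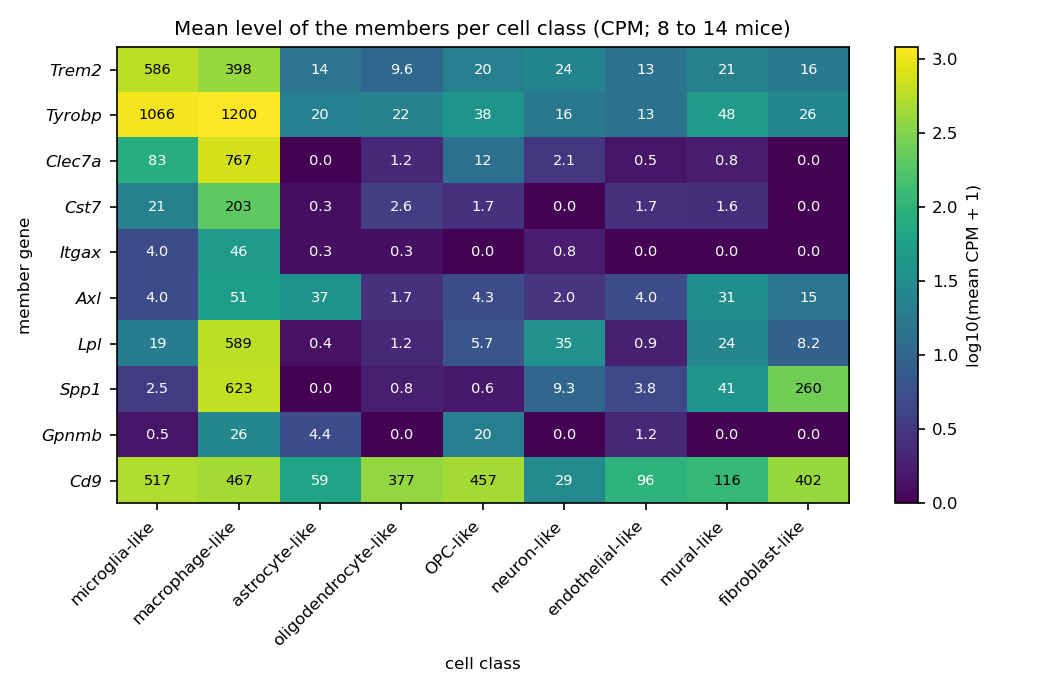
Mean level of each member gene (rows) in each cell class (columns), in CPM over mice with at least 10 cells of the class, with the colour on a log10 scale. By the mean, Trem2 and Cd9 are highest in microglia-like cells and the other 8 members in macrophage-like cells, a mixed class. For Tyrobp, Itgax, Axl, Spp1, Gpnmb and Cd9 the highest class did not pass the test against the next. Ependymal-like cells, in too few mice, are not shown.

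As a description, the profile over the 10 named classes most like that of Trem2 was that of Rgs1, with a Pearson r of 0.996 on log2(CPM + 10), followed by Ccl4 and Gpr183. Tyrobp was most like Arl5c, Trem2 and Rgs1, and Clec7a was most like Ifi209 (r = 0.990), Bcl2a1a and Plau.

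The macrophage-like class was mixed. At the finer clustering 404 of its 405 cells from the 14 mice fell into 224 macrophage-like, 111 microglia-like and 69 T or NK cell-like cells. This division was looked at after the data had been seen and is described without a test. The 111 cells called microglia-like had 5 Mrc1 UMIs, 1 Pf4 UMI and no F13a1 UMI, and their summed level of Clec7a was 1601 CPM, that of Lpl 1304 CPM, that of Spp1 1086 CPM and that of Apoe 17758 CPM. Over all microglia-like cells, in the same order, the summed levels of Clec7a, Lpl and Spp1 were 79.1, 19.8 and 2.2 CPM. Tmem119 was at 252 CPM and P2ry12 at 366 CPM in the 111 cells. The other members in these cells are not given here. Nor are the summed levels of Apoe, Tmem119 and P2ry12 over all microglia-like cells. The 224 cells macrophage-like at both settings had 768 CPM of Clec7a, 603 CPM of Lpl and 752 CPM of Spp1, with 3154 CPM of Mrc1.

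Of the 111 cells, 98 came from the 8 THY-Tau22 mice and 13 from the 6 WT mice. The THY-Tau22 males held 22, 9 and 7 of them, and the THY-Tau22 females 13, 5, 10, 29 and 3. The WT males held 5, 1 and 3, and the WT females 3, 1 and 0. As a share of microglia- and macrophage-like cells, the highest was 5.56% in THY-Tau22 female 4 (exact 95% interval 3.75 to 7.88), and the lowest of a THY-Tau22 mouse was 0.493% in THY-Tau22 female 5 (0.102 to 1.43). In WT mice the highest was 0.831% (WT female 1, 0.172 to 2.41), and WT female 3 had 0 of 694 cells, which allows a share of up to 0.432% by the limit of 3 counts (the exact interval ends at 0.530%). The shares overlapped between genotypes through THY-Tau22 female 5. The intervals cover counting error only.

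**Figure D2:**
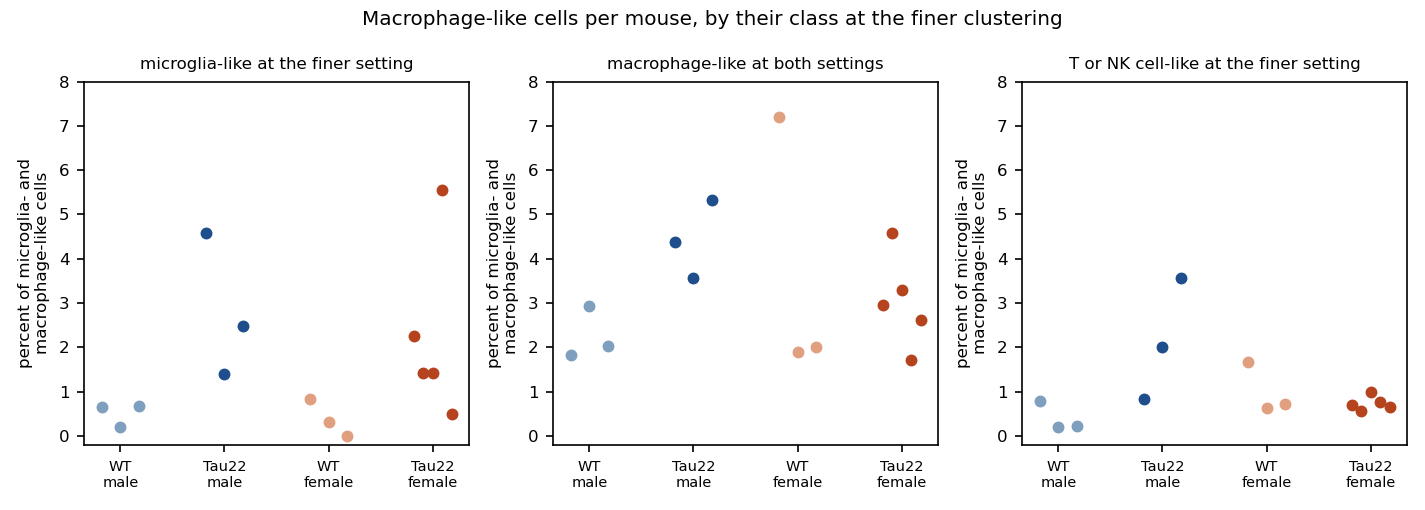
Cells of the macrophage-like class that were microglia-like, macrophage-like or T or NK cell-like at the finer clustering (panels), as a percent of microglia- and macrophage-like cells, each point 1 mouse. The left panel reaches 5.56% in THY-Tau22 and 0.831% in WT mice.

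Whether the members differed between THY-Tau22 and WT mice was tested for each sex on UMI counts summed per mouse, with edgeR's quasi-likelihood test over all genes and Benjamini-Hochberg adjustment. A gene was called at an adjusted p below 0.05 with a log2 change of at least 0.5. A change in the summed counts of a class can come from more cells with a gene or from more RNA per cell, and these cannot be told apart at this level. In microglia-like cells of males, Clec7a rose, and Trem2, Tyrobp and Cd9 missed the threshold. In females no member was called. Only these 4 members passed the filter on low counts among 5054 genes, so the other 6 are given as levels. In males 0.475% of all tested genes were called, 0.435% as higher, and in females 0% were called.

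Clec7a was at 44.0, 35.0 and 42.0 CPM in the microglia-like cells of the WT males, and at 255, 133 and 154 CPM in those of the THY-Tau22 males. Every THY-Tau22 male was above every WT male, at 181 CPM (SD 65.3, n = 3) against 40.4 CPM (SD 4.71, n = 3), a log2 change of 2.04 (SE 0.37, edgeR adjusted p = 0.0182), and DESeq2 gave no adjusted p for it. The WT females had 97.0, 40.0 and 18.3 CPM, and the THY-Tau22 females had 78.6, 48.6, 71.4, 89.6 and 55.1 CPM. The female groups overlapped, with WT female 1 the highest of all females, and the log2 change was 0.66 (SE 0.38, adjusted p = 1.00). Averaged over both sexes, Clec7a was called with a log2 change of 1.35 (SE 0.27, adjusted p = 0.0487), where 0.0396% of tested genes were called. That call was kept without WT female 1 or WT female 2 and lost without any other mouse (adjusted p 0.0509 to 0.315). It was also lost without TMM normalization (0.0837), without doublets (0.105), at the finer clustering (0.0859), with at least 500 genes per cell (0.344) and without the 2 libraries of the other prefix (0.169), and kept with DESeq2 (0.0436). The call in males was lost without WT male 1 (adjusted p = 0.171), WT male 4 (0.0729) or THY-Tau22 male 1 (0.102), with log2 changes of 2.14, 2.04 and 1.68.

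Trem2 was at 414, 413 and 224 CPM in the microglia-like cells of WT males and at 595, 638 and 1210.4 CPM in THY-Tau22 males. The groups did not overlap, and the log2 change of 1.11 (SE 0.32) missed the threshold with edgeR (adjusted p = 0.0800) and passed it with DESeq2 (0.0297), which called 2.18% of its genes. Without THY-Tau22 male 3 it was 0.72 (edgeR adjusted p = 0.460). In WT females Trem2 was at 679, 1176 and 319.7 CPM, so that these 3 mice spanned the range of the THY-Tau22 females, at 568, 413, 525, 589 and 443 CPM. The log2 change in females was -0.47 (SE 0.28, adjusted p = 1.00). The difference between the changes in males and females was 1.57 (SE 0.42), not called by edgeR (adjusted p = 0.128) and called by DESeq2 (0.0257).

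Tyrobp was at 683, 849 and 494 CPM in WT males and at 1267, 1007 and 2136 CPM in THY-Tau22 males, with THY-Tau22 male 3 the highest male for both the receptor and its adaptor. The log2 change was 1.03 (SE 0.33, edgeR adjusted p = 0.113, DESeq2 0.0482), and 0.67 without THY-Tau22 male 3 (edgeR adjusted p = 0.530). In females it was at 1622, 1585 and 451 CPM in WT and at 987, 679.8, 997, 1353 and 812 CPM in THY-Tau22 mice, which overlapped, with a log2 change of -0.29 (SE 0.29, adjusted p = 1.00). Cd9 was at 359, 514 and 326 CPM in WT males and at 635, 568 and 815 CPM in THY-Tau22 males, without overlap, at a log2 change of 0.66 (SE 0.27, edgeR adjusted p = 0.207). In females its log2 change was -0.10 (SE 0.25). WT female 3 was the lowest female for all 4 of these genes, and without it the difference between the sexes was called for each (log2 differences of 1.07 to 1.90, adjusted p 0.00288 to 0.0345), whereas with it none of the 4 was called, nor was any of the 5054 genes (14.3% had an unadjusted p below 0.05, and DESeq2 called 29 genes, 0.574%). The share of all genes called without WT female 3 is not given here, so these 4 calls are not read as particular to the members.

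**Figure D3:**
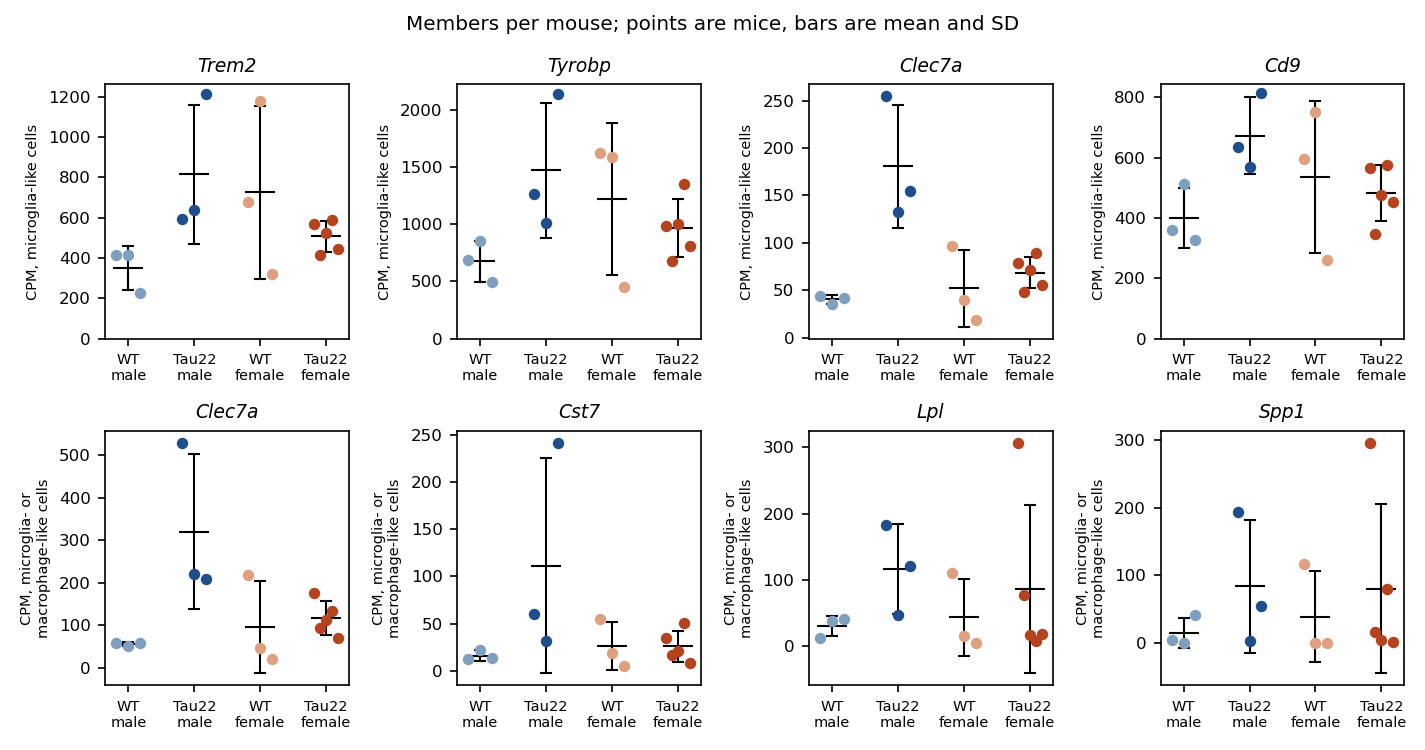
CPM of 4 members in microglia-like cells (upper row) and of 4 members in microglia- or macrophage-like cells (lower row), each point 1 mouse and each bar the mean and SD of a group. In males the points of Trem2, Tyrobp, Clec7a and Cd9 do not overlap between genotypes, and in females they do.

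The other 6 members had between 2 and 82 UMIs in microglia-like cells. Itgax was counted in every THY-Tau22 male (4.05, 9.47 and 16.8 CPM, 9 UMIs) and in no WT male. Its pooled level in THY-Tau22 males was 3.22-fold the limit of 3 counts over the WT males. Axl had 5 UMIs in THY-Tau22 males and none in WT males, 1.79-fold by the same measure. These ratios leave out the counting error of the THY-Tau22 UMIs and the spread between mice, so they set no lower bound. Cst7 was at 13.2, 23.4 and 9.32 CPM in WT and 20.2, 25.3 and 46.9 CPM in THY-Tau22 males, and these overlapped. Lpl, at 6.61 to 38.9 CPM in WT and 12.6 to 32.4 CPM in THY-Tau22 males, overlapped fully. Spp1 and Gpnmb had 9 and 2 UMIs in all, too few to compare at this depth. In males, 6 of the 10 members had every THY-Tau22 mouse above every WT mouse, against 7.07% of the genes with a UMI in this class and 15.9% of those tested. In females none did, against 0.689% and 1.25%. By an exact two-sided permutation test over mice, 3 males against 3 cannot go below p = 0.100, the value of each of these 6 members. With genotypes permuted within sex, Clec7a had p = 0.0205, Axl 0.0643, Itgax 0.107, Trem2 0.512 and Tyrobp 0.387 over both sexes (unadjusted, exact).

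The quality of the male libraries moved with genotype. In microglia-like cells, summed ribosomal protein genes were at 27130 to 36393 CPM in THY-Tau22 males and 16145 to 20531 CPM in WT males. The median share of mitochondrial mRNA was 0.753 to 1.05% against 0.268 to 0.421%, and the median number of genes per cell 322.5 to 637 against 271.5 to 321.5. In females these 3 measures overlapped between genotypes. Summed microglial markers overlapped in males (15976 to 18572 CPM in THY-Tau22, 13430 to 18124 CPM in WT), and the 8 macrophage markers summed to at most 36.9 CPM in any male. Of the marker lists of other cell types, that of B cells (5 genes) did not overlap between the male groups, at 149.7 to 164 CPM in THY-Tau22 and 92.5 to 132 CPM in WT males, and the others did. Only 3 of these 5 genes had a UMI in this class, and only 1 had a mean of at least 10 CPM. In each of the 2 microglia-like clusters 1 B cell marker was raised. Whether this sum marks B cells was not tested. The part of RNA quality in the differences above was not tested.

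In microglia- and macrophage-like cells summed as 1 class, a grouping added after the data had been seen because of the mixed class, 7 of the 10 members passed the filter among 5452 genes. Clec7a and Cst7 were called in males, where 0.642% of genes were called, and no member in females, where 0% were. Clec7a was at 59.4, 52.3 and 58.9 CPM in WT males and at 530.3, 222 and 209.9 CPM in THY-Tau22 males, a log2 change of 2.40 (SE 0.49, edgeR adjusted p = 0.0432). Cst7 was at 12.7, 22.4 and 13.6 CPM in WT males and at 59.7, 32.1 and 242 CPM in THY-Tau22 males, a log2 change of 2.70 (SE 0.65, adjusted p = 0.0488). Neither pair of groups overlapped, which held for 7.5% of genes with a UMI in this direction, and each had 1 mouse far above the rest, THY-Tau22 male 1 for Clec7a and THY-Tau22 male 3 for Cst7. WT male 1 and WT male 2 held 6 Cst7 UMIs each. THY-Tau22 male 3 held 70 in its 32 macrophage-like cells and 14 in its microglia-like cells. At the finer clustering those 32 cells were 15 macrophage-like, 10 T or NK cell-like and 7 microglia-like cells. How the 70 UMIs were divided among them is not given here, so the call of Cst7 is not read as one of myeloid cells alone. In microglia-like cells alone Cst7 did not pass the filter on low counts. The call of Clec7a was lost without WT male 1, 2 or 4, THY-Tau22 male 1, or THY-Tau22 female 1 or 3, that of Cst7 also without THY-Tau22 male 3 or THY-Tau22 female 2 or 5. Without THY-Tau22 male 1 the log2 change of Clec7a was 1.77, and without THY-Tau22 male 3 that of Cst7 was 1.44. Without WT female 3 the number of members called was 4, given without the share of all genes called. In females, Cst7 was at 55.0, 19.4 and 5.07 CPM in WT and at 34.7, 16.7, 21.4, 50.3 and 8.20 CPM in THY-Tau22 mice, and the groups overlapped.

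Lpl and Spp1 in this grouping were carried by a few mice of both sexes. Lpl was at 12.7, 37.4 and 40.8 CPM in WT males and at 183, 46.7 and 121 CPM in THY-Tau22 males, which did not overlap, with a log2 change of 1.97 (SE 0.91, adjusted p = 0.253). In females it was at 109.9, 15.5 and 5.07 CPM in WT and at 307, 77.8, 16.6, 8.38 and 18.4 CPM in THY-Tau22 mice. Spp1 was at 4.24, 0 and 40.8 CPM in WT males and at 193, 2.92 and 54.6 CPM in THY-Tau22 males, at a log2 change of 2.63 (SE 1.40, adjusted p = 0.317), which was 1.08 without THY-Tau22 male 1 and 4.65 without WT male 4. In females Spp1 was at 116, 0 and 0 CPM in WT and at 296, 16.7, 4.75, 79.6 and 2.05 CPM in THY-Tau22 mice. The highest female for both genes was THY-Tau22 female 1, and the highest male THY-Tau22 male 1.

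**Figure D4:**
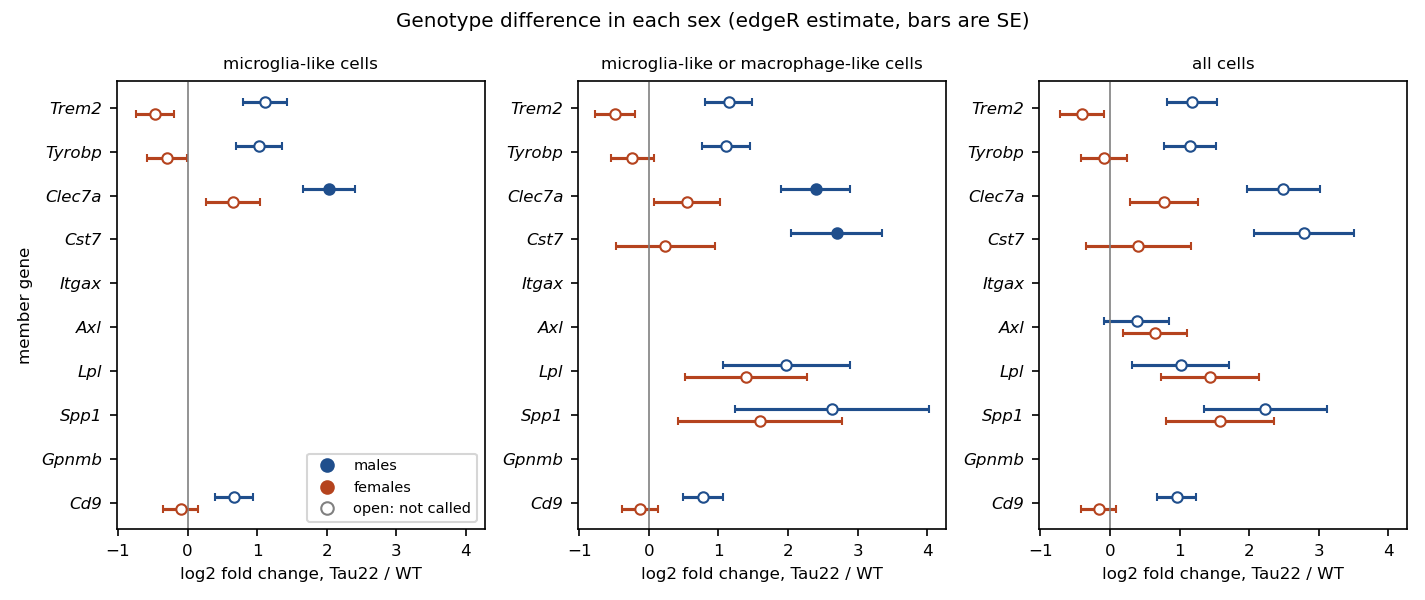
Log2 fold change of THY-Tau22 over WT mice with its SE for each member that passed the filter (rows), in males and females, for 3 sets of cells (panels). Filled points were called, and these are Clec7a in males in the first 2 panels and Cst7 in males in the second.

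In all cells of a mouse summed, which needs no class names, 8 members passed the filter among 11643 genes and none was called in either sex. In males 0% of all genes were called, 15.4% had an unadjusted p below 0.05, and DESeq2 called 74 genes (0.636%), 2 of them members. The log2 change of Clec7a in males was 2.49 (SE 0.52, edgeR adjusted p = 0.159), that of Cst7 2.79 (SE 0.72, adjusted p = 0.196; 1.56 without THY-Tau22 male 3) and that of Cd9 0.96 (SE 0.28, adjusted p = 0.228). The number of members with an unadjusted p below 0.05 was 6 in males and 0 in females, where 1.74% of all genes had one. Gpnmb was too low for the fit. It stood at 7.18, 3.46, 4.89, 3.97 and 2.56 CPM in THY-Tau22 females and at 1.32, 1.09 and 1.18 CPM in WT females, without overlap (exact permutation test, unadjusted p = 0.0357, the smallest that 5 against 3 mice allow), where 0.504% of genes with a UMI did not overlap in this direction. In the same order, these levels rest on 11, 3, 7, 3 and 5 UMIs in THY-Tau22 females and on 1, 1 and 2 in WT females.

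Outside the myeloid classes, Cd9 passed the filter in 4 classes and Axl in astrocyte-like cells, where its log2 change in males was 0.27 (SE 0.59, edgeR adjusted p = 0.850). In oligodendrocyte-like cells of males the mean of Cd9 was 577 CPM in THY-Tau22 and 214 CPM in WT mice, a log2 change of 1.19 (SE 0.29, edgeR adjusted p = 0.0821). In endothelial-like cells of males that of Cd9 was 146 against 43.8 CPM, a log2 change of 1.50 (SE 0.40, adjusted p = 0.166). No member was called in these classes in either sex. The share of all genes called in males was 0.0753% in oligodendrocyte-like, 0.0594% in endothelial-like, 0.0809% in OPC-like and 0% in astrocyte-like and neuron-like cells, and no member passed the filter in the last. Of 6 members tested in macrophage-like cells among 362 genes, none was called, nor was any gene (0%).

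Of 15 genes of Trem2-Tyrobp signalling, 14 were tested in microglia-like cells and edgeR called 0 in males or females, with a median log2 change of -0.02 in males, next to 0.01 over all tested genes. The largest changes in males were those of Inpp5d, the phosphatase SHIP1 that restrains this pathway, at -0.50 (SE 0.27, adjusted p = 0.337), and Vav1, a guanine nucleotide exchange factor, at 0.48 (SE 0.31, adjusted p = 0.445). The most abundant were the kinase Lyn, at -0.04 (SE 0.23), and the adaptor Grb2, at 0.26 (SE 0.25).

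Of 22 other genes known from disease-associated microglia, 17 were tested. In males 3 were called, all higher, where 0.435% of all tested genes were called higher. All 17 had a log2 change above 0, with a median of 0.96, where 50.8% of all tested genes were above 0. The called genes were H2-D1 and B2m, the heavy and light chains of major histocompatibility class I, at log2 changes of 1.73 (SE 0.32, adjusted p = 0.0182) and 1.44 (SE 0.34, adjusted p = 0.0429), and the chemokine gene Ccl4, at 1.39 (SE 0.32, adjusted p = 0.0429). Apoe, which encodes the main apolipoprotein of the brain and a Trem2 ligand, was at 278 CPM in WT and 960.0 CPM in THY-Tau22 males. Its log2 change of 1.66 (SE 0.43) missed the threshold (edgeR adjusted p = 0.0590). Fth1, ferritin heavy chain, was at 1.04 (SE 0.34, adjusted p = 0.125). In females 0 were called, 7 of 17 were above 0 (48.9% of all tested genes) and the median was -0.02.

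Of 12 homeostatic genes, 12 were tested and 0 called in either sex, with a median log2 change of 0.16 in males and -0.12 in females. Selplg (0.76, SE 0.31, adjusted p = 0.203) and Olfml3 (0.70, SE 0.27, adjusted p = 0.185) had the largest changes in males, and the fractalkine receptor gene Cx3cr1, among the most abundant, was at -0.58 (SE 0.27, adjusted p = 0.259). Of 10 immediate early genes, which respond to handling, 0 were called in either sex, with a median log2 change of 0.30 in males and -0.23 in females. Ier2 (0.91, SE 0.26, adjusted p = 0.0747) and Dusp1 (0.57, SE 0.31, adjusted p = 0.337) changed most in males, and the most abundant, Jun and Egr1, were at 0.09 and 0.01. Their summed level was 27291 to 28721 CPM in THY-Tau22 males and 22256 to 24483 CPM in WT males.

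Cells were also compared within mice by whether they held a Clec7a UMI, which did not use the genotype. In the 14 mice, 200 of 6847 microglia-like cells held at least 1, from 6 to 35 per mouse. In cells thinned to 300 UMIs the share was 1.92% (SD 1.34, n = 14), against 0.158% in neuron-like and 0.0288% in oligodendrocyte-like cells, which should lack the gene. In the cells with a Clec7a UMI, Lpl was at 341 CPM (SD 386) against 9.84 CPM (SD 11.4) in the others, a mean difference of 3.05 on log2(CPM + 10) (SE 0.63, permutation test with sign flips within mice, adjusted p = 0.00494), and it was higher in 11 of 14 mice. Cd9 was at 1000.1 CPM (SD 414) against 498 CPM (SD 151), higher in 13 of 14 mice (0.91, SE 0.19, adjusted p = 0.00439). With at least 500 genes per cell 0 members passed, and at the finer clustering, which moved the 111 cells into the microglia-like class, 7 of the 9 other members did.

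Other members did not pass on this scale. Cst7 was at 103 CPM against 16.6 CPM (difference 1.18, SE 0.49, adjusted p = 0.106), and Tyrobp at 1441 CPM against 1045 CPM (0.34, SE 0.19, adjusted p = 0.189). Trem2 was at 771 CPM (SD 461) against 578 CPM (SD 281), a log2 difference of 0.00 (SE 0.43, adjusted p = 0.999), with 10 of 14 mice higher. Mice with a few UMIs or none of a gene weigh down the mean on the log scale, so the test was repeated on CPM itself, an alternative added after the data had been seen. There 4 members were higher, Lpl, Cd9, Cst7 (adjusted p = 0.0139) and Tyrobp (0.0483), and Trem2 had an adjusted p of 0.0833. Spp1, Itgax, Axl and Gpnmb had 2 to 5 UMIs each in the 200 cells.

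Among genes outside the member list, Apoe was at 3468 CPM (SD 2785) in cells with a Clec7a UMI and 593 CPM (SD 355) in those without (difference 2.25, SE 0.29, adjusted p = 0.00159, higher in 13 of 14 mice). Of the 12 homeostatic genes, 7 were lower in the cells with a Clec7a UMI on the log scale, and 6 of these 7 on CPM itself. The share of all genes lower or higher in these cells was not computed. The counts of members and of homeostatic genes are therefore not read as particular to these lists. P2ry12, a purinergic receptor, was at 883 CPM against 1831 CPM (-1.21, SE 0.21, adjusted p = 0.00159), and Tmem119 at 381 CPM against 582 CPM (-1.25, SE 0.51, adjusted p = 0.0172), the latter from 67 UMIs in the cells with one of Clec7a. Selplg, Olfml3, Txnip, Siglech and Cx3cr1 were the others, of which Siglech did not pass on CPM itself (adjusted p = 0.0762), and Gpr34 (-0.15), for example, did not pass. The median depth of the cells with a Clec7a UMI was 381 to 1221 UMIs per mouse, against 382 to 1020.5 for those without. Within a mouse the cells with a Clec7a UMI were deeper, as in WT female 2 (1221 against 716). The exceptions were THY-Tau22 female 4 (381 against 382) and THY-Tau22 female 5 (618 against 689). The part of depth in these differences was not tested.

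**Figure D5:**
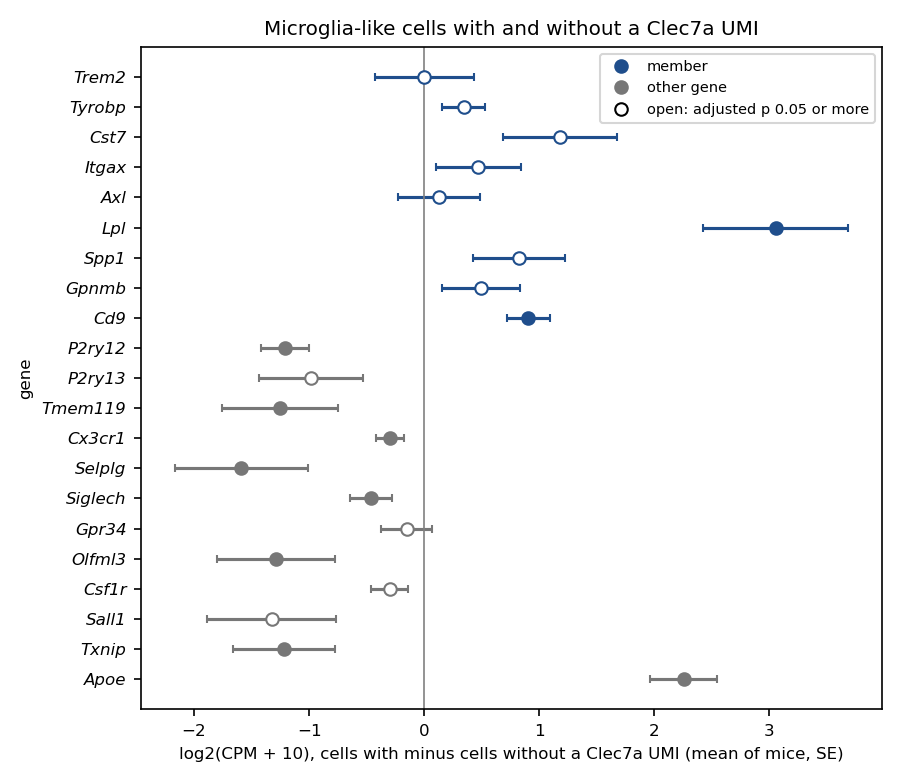
Difference between microglia-like cells with and without a Clec7a UMI on the log2(CPM + 10) scale, as the mean over 14 mice with its SE, for the other members and for Apoe and homeostatic genes. Apoe, Lpl and Cd9 lie to the right and 7 homeostatic genes to the left of 0 with an adjusted p below 0.05 (filled points).

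The share of microglia-like cells with a Clec7a UMI, thinned to 300 UMIs, was 2.51 to 5.58% in THY-Tau22 males and 0.836 to 1.19% in WT males (3.73% against 1.03% in the mean, exact permutation test, p = 0.100, the smallest possible). Unthinned it was 6.52% against 1.62%. In females the thinned share was 1.19 to 2.88% in THY-Tau22 and 0.520 to 2.68% in WT mice, which overlapped (1.72% against 1.34%, exact p = 0.571). For Trem2 the thinned share of cells with a UMI was 16.8 to 29.1% in THY-Tau22 males and 6.85 to 12.0% in WT males, and for Tyrobp 25.7 to 44.4% and 12.9 to 22.6%. Both were without overlap (exact p = 0.100 each).

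Single microglia-like cells held few of the members at once. Apart from Trem2 and Tyrobp, 5128 of the 6847 cells (74.9%) had no UMI of a member, 1548 had a UMI of 1, 138 of 2, 30 of 3, 2 of 4 and 1 of 7. At a median of 381.5 to 1053 UMIs per cell and mouse, a cell without a UMI may still express the gene.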

How the data were processed

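The authors deposited, per library, a table of UMI counts (genes by barcodes) made from Drop-seq reads, with mm10 named in the submitters' processing notes. Each table held 3000 barcodes and a total of 1041675 to 2237505 UMIs. Itgax was listed in 10 and Gpnmb in 14 of the 16 tables, and an unlisted gene was taken as 0. Barcodes with 200 to 7000 genes were kept (median depth 429 to 736.5 UMIs per library). Cells were clustered with Scanpy 1.11.5 (2500 variable genes without the members, 19 components, 20 neighbours, Leiden resolution 0.5, leidenalg 0.10.2) and named from marker lists. Scrublet marked 1473 cells (5.16%), which were kept, while clusters with over 50% marked were left unnamed. Counts summed per mouse (at least 10 cells) were tested with edgeR 4.0.16 (quasi-likelihood, TMM, filterByExpr, 4 groups in 1 fit) in R 4.3.3, with DESeq2 1.42.0 as an alternative. The edgeR step was tested on simulated data. Exact permutation tests used SciPy 1.17.1. No label said that the mice were processed independently, so p-values measure the spread between these libraries. The 2 libraries with shared barcodes were left out.

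The members and gene lists were chosen with earlier results of these data known. Members were named at every level, and list genes if called, among the 2 with the largest change in males or among the 2 most abundant. One gene named by this rule is not reported here. The grouping of microglia- with macrophage-like cells and the division of the macrophage-like class were added after the data had been seen. The alternatives were DESeq2, library totals without TMM, no filter, other cell filters and clustering, other uses of the shared library, the prefix of the titles, each sex alone and each mouse left out.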

Additional observations from a re-analysis of the deposited data

Results flagged for a closer look

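In groups of 4 to 10 mice, a value is given here when its gap to the nearest mouse was above Dixon's critical value. Only the 5 THY-Tau22 females form such a group, and 7 of 30 sets of values had such a mouse. The sets share cells, since microglia-like cells are also part of the joined class and of all cells. Some flags rest on 1 or 2 UMIs, so their number is not set against a rate by chance. THY-Tau22 female 1 stood apart for the lipid and matrix genes. In its microglia-like cells Lpl was at 84.4 CPM from 29 UMIs, with the next female at 19.1 CPM. In its microglia- and macrophage-like cells together, Lpl was at 307 CPM from 115 UMIs (next 77.8 CPM), Spp1 at 296 CPM from 111 UMIs (next 79.6 CPM) and Gpnmb at 18.7 CPM from 7 UMIs (next 4.19 CPM). In microglia-like cells THY-Tau22 female 2 had 12.1 CPM of Itgax from 2 UMIs (next 2.91 CPM) and 6.07 CPM of Spp1 from 1 UMI, which was listed at 0 in the other 4 females. THY-Tau22 female 4 had 4.71 CPM of Gpnmb, from 1 UMI, with the other 4 at 0.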

How the results depend on the processing

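Except where stated, the counts of members called are given here without the share of all genes called in that setting, so they are not read as particular to the members. Clec7a was higher in microglia-like cells of THY-Tau22 males under every alternative run, while the number of members called there moved from 1. With DESeq2 it was 2, Trem2 and Tyrobp but not Clec7a, which had no adjusted p, and 2.18% of all genes were called. The number was 3 with no filter on low counts, without the 2 libraries of the other prefix or with each sex fitted alone. It was 0 with all 16 libraries or with the shared library kept as a THY-Tau22 male. Leaving out each mouse gave 0 to 3. Over both sexes the 1 call went to 0 without TMM, with at least 500 genes, without doublets, at Leiden resolution 1.0, with all 16 libraries, with the shared library as a THY-Tau22 male and without the 2 libraries of the other prefix, and leaving out each mouse gave 0 to 1. For the difference between the sexes, 0 became 1 with DESeq2, no filter or at least 500 genes, and 2 without those 2 libraries, and leaving out each mouse gave 0 to 4. In all cells the 0 calls in males became 2 with DESeq2, 6 with no filter, 2 without those 2 libraries and 6 with each sex alone (leaving out each mouse, 0 to 1). With no filter females had 2, both sexes 4 and the difference between the sexes 2, the last 4 without those 2 libraries. Leaving out each mouse gave 0 to 1 over both sexes and 0 to 4 for the difference. In microglia- and macrophage-like cells together the 2 calls in males became 0 without TMM, with at least 500 genes, with all 16 libraries or with the shared library as a THY-Tau22 male, 1 with at most 5% mitochondrial mRNA, 4 without those 2 libraries, 6 with no filter and 7 with each sex alone (leaving out each mouse, 0 to 4). There, both sexes went from 0 to 4 with no filter (0 to 1 leaving out each mouse), and the difference between the sexes from 0 to 1 with DESeq2 or no filter and 4 without those 2 libraries (0 to 4). In macrophage-like cells of males no filter gave 2 in place of 0. Members highest in microglia-like cells numbered 6 in place of 2 with at least 500 genes. Members higher in cells with a Clec7a UMI numbered 0 with at least 500 genes, 7 at Leiden resolution 1.0 and 4 on CPM without a log, in place of 2.

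Several small values turned sign. In microglia-like cells of females, leaving out each mouse moved the log2 change of Trem2 from -0.80 to 0.052 and that of Cd9 from -0.41 to 0.22, above 0 without WT female 2. In all cells of males that of Axl went from -0.40, without THY-Tau22 male 3, to 0.74. In cells with a Clec7a UMI the difference of Trem2 was -0.23 with log2(CPM + 1), -0.00397 without doublets and -0.051 at Leiden resolution 1.0, that of Axl -0.34 with log2(CPM + 1), and that of Gpr34 0.24 with at least 500 genes. The female difference in the share of cells with a Clec7a UMI, 0.376 percentage points, was -0.268 thinned to 500 UMIs and -1.07 with at least 500 genes, and -0.0345 to 1.05 leaving out each mouse. The cause of these changes was not tested. No paired analysis was possible because replicates were numbered in accession order and, of the animal and S numbers in the titles, the WT and THY-Tau22 mice compared within a sex share at most 1. Itgax, Axl, Spp1 and Gpnmb in microglia-like cells are limited by depth, with at most 16 UMIs each over 14 mice.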
